A study of Mus musculus with 50 samples.

Results

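The 39 genes described here make cholesterol and fatty acids, control that synthesis, or move sterol out of the cell. They were chosen by symbol from pathway membership and placed in 4 arms, which were 19 enzymes of cholesterol synthesis, 6 genes of the control by sterol regulatory element-binding proteins (SREBPs), 9 enzymes of fatty acid synthesis and 5 genes of the liver X receptor (LXR) and efflux arm. All 39 were found among the 39056 entries of the gene count table, and all 39 were among the 16460 genes that passed the filter on low counts. The study sequenced bulk RNA from 50 libraries of differentiating mouse oligodendroglia. The cells were oligodendrocyte progenitors immunopanned from the cortices of 6 day old C57BL/6 pups, taken through 2 passages and kept for 12 to 14 h in differentiation medium before treatment, while the tissue tag reads whole brain. They came from wild-type mice or from mice without Nrf2 (Nrf2 -/-, encoded by Nfe2l2), a transcription factor of the oxidative stress response. Untreated cells and cells given interferon gamma (IFN-γ) at 200 U/ml were collected at 1, 8, 24 and 48 h, and cells given thapsigargin, which blocks the calcium pump of the endoplasmic reticulum and is labelled at 200 µM, were collected at 1 and 8 h. This made 20 groups, of which the 10 wild-type groups held 2 libraries each and the 10 Nrf2 -/- groups held 3 each. The labels do not say whether replicates were separate cultures or animals, so the p-values measure only the spread between these libraries.

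Cholesterol is built from acetyl-CoA through mevalonate and squalene to lanosterol, which later enzymes trim to cholesterol. SREBP2 (Srebf2) drives the genes of this route and SREBP1 (Srebf1) mainly those of fatty acid synthesis; both are held in the endoplasmic reticulum by INSIG proteins and are carried by SCAP to the Golgi, where they are cut and released, when membrane sterol is low. The liver X receptors respond to oxysterols and raise the cholesterol exporters ABCA1 and ABCG1 and the ubiquitin ligase MYLIP. Myelin is rich in cholesterol, and oligodendrocytes make most of theirs themselves.

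Library totals ran from 32.3 M to 54.7 M counts (M, 1e6). Levels are given as CPM, counts per 1e6 of the scaled library total. Nfe2l2 lay at 5.12 to 70.43 CPM in the 20 wild-type libraries and at 0.10 to 0.86 CPM in 29 of the 30 Nrf2 -/- libraries. The library labelled Nrf2 -/- untreated 8 h replicate 3 held 7.62 CPM, within the wild-type range, and the totals of called members that use it, the genotype counts and the retained-intron count are given with and without it. In 3 other libraries the genotype tag went against the title, and the title was followed. Genes of the oligodendrocyte lineage were present in every library (Olig1 at 217 to 1044 CPM and Sox10 at 366 to 957 CPM). The summed level of 7 myelin genes was 3281 to 4385 CPM in untreated cells at 1 h and 32338 to 35637 CPM at 48 h, and that of 3 progenitor genes (Pdgfra, Cspg4 and Ptprz1) was 2051 to 2678 CPM and 608 to 888 CPM. The microglial marker Aif1 and the endothelial marker Cldn5 were at 0 in every library. In bulk RNA, fewer cells of a type and less RNA per cell cannot be told apart.

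Promoter sequence was taken for the members from RefSeq (build GRCm38.p6), which held an entry for 31 of the 39 (not for Abcg1, Fads1, Fdft1, Fdps, Scd1, Scd2, Sqle and Stard4). It was searched on both strands, from 250 bases before the start to 50 after it, for TCACNCCAC (a sterol regulatory element), CCAAT (the NF-Y box), GGGCGG (the Sp1 box), CACGTG (an E-box) and an LXR direct repeat (AGGTCA, 4 bases of any kind, AGGTCA). The NF-Y box was in 15 of the 16 cholesterol synthesis genes with an entry, in 4 of 5 control genes, in 3 of 6 fatty acid genes and in 1 of 4 genes of the LXR arm. It stood in 58.5% of the members' 41 windows and in 37.4% of all 32851 windows. The Sp1 box was in 65.9% of the members' windows and 35.7% of all windows, and the E-box in 19.5% and 7.15%. The members' windows held a median of 60.3% G and C against 52.7% for all. TCACNCCAC was in 1 window of the members, that of Hmgcs1 (2.44% against 1.24% of all windows). No window of the members held the direct repeat in these exact letters, which 0.0152% of all windows held. Variants of these motifs were not searched, so a gene without a match may still hold one. A match describes letters only, and no binding was measured. The 250 bases before the start are printed 5′ to 3′ for 6 members whose levels are followed below, with every match in capitals. They are the sterol enzymes Hmgcs1, Mvd and Hsd17b7 (the last did not follow the others at 48 h), the SREBP anchor Insig1, the fatty acid synthase Fasn, and the exporter Abca1, which moved against most synthesis genes in several comparisons.
Hmgcs1, chr13:119690101-119690350, plus strand: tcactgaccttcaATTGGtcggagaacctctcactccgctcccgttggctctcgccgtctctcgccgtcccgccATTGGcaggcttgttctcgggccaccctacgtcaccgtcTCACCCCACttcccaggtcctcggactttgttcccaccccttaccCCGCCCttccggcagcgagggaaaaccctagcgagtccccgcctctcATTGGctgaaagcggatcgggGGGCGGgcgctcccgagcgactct
Mvd, chr8:122443423-122443672, minus strand: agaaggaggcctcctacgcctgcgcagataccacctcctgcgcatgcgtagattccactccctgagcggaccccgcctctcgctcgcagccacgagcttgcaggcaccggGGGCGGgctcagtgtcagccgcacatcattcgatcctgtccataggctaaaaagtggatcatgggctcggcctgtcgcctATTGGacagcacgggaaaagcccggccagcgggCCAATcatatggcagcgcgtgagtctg
Hsd17b7, chr1:169969206-169969455, minus strand: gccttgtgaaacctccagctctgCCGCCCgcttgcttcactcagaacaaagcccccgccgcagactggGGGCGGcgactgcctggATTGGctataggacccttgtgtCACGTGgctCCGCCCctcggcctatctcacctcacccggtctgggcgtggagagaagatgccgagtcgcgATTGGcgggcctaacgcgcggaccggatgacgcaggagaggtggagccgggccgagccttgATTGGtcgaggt
Insig1, chr5:28071162-28071411, plus strand: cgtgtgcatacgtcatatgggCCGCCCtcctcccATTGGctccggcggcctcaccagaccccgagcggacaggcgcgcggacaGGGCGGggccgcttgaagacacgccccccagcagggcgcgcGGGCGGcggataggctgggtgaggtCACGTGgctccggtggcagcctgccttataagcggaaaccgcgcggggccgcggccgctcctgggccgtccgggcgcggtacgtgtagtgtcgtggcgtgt
Fasn, chr11:120824548-120824797, minus strand: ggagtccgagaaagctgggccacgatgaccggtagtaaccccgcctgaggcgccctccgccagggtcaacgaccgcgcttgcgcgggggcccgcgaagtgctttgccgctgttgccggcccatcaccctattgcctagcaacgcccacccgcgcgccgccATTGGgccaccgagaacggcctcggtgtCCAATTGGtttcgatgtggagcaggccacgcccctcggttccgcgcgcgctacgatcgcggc
Abca1, chr4:53159896-53160145, minus strand: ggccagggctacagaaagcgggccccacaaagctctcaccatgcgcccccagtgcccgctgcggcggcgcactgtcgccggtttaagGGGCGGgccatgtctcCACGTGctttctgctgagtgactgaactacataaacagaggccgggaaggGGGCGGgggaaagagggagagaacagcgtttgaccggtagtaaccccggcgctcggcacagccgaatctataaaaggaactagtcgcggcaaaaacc

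In untreated cells the synthesis genes rose together over the first hours. Library numbers run in blocks by hour. In comparisons between hours, here and below, hour and library order therefore cannot be told apart. Between 1 and 8 h, 18 of the 19 cholesterol synthesis genes rose and none fell (median log2 fold 0.79), and all 9 fatty acid genes rose (median 0.69), while 4 of the 5 LXR arm genes fell (median −0.59). Of all 39 members, 32 rose and 4 fell, where 20% of all tested genes rose and 16.7% fell. The median member gained 0.65 on the log2 scale, and the median of all genes was −0.01. In every comparison below that averages over genotypes, the median of all genes lay between −0.02 and 0.03. These calls are from edgeR's quasi-likelihood test with Benjamini-Hochberg adjustment over all 16460 genes at 0.05, on differences averaged over both genotypes, and the same test stands behind every adjusted p below. Hmgcs1 encodes the cytosolic HMG-CoA synthase at the head of the mevalonate route. It stood at 3020, 3342, 3083, 3031 and 3107 CPM at 1 h and at 6547, 6536, 6198, 5806 and 5736 CPM at 8 h, where the first 2 of 5 listed values are wild type and the last 3 Nrf2 -/-, here and throughout. The 8 h libraries all lay above the 1 h libraries, with no overlap, in both genotypes. The rise was 1.99-fold (log2 0.99, SE 0.07, adjusted p = 1.38e-13). The largest folds among the sterol enzymes belonged to Pmvk (phosphomevalonate kinase), which rose 2.14-fold (SE 0.07 on the log2 scale, adjusted p = 1.03e-15), and to Acat2 (the cytosolic acetoacetyl-CoA thiolase), which rose 2.06-fold (adjusted p = 7.26e-15). Ggps1, which makes geranylgeranyl diphosphate on a side branch, was the one sterol gene that did not pass (log2 0.06). Over the same interval 6 of the 7 myelin genes rose (summed level 5594 to 7130 CPM at 8 h) and all 3 progenitor genes fell (summed level 1319 to 1792 CPM at 8 h), and their part in these results was not tested.

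**Figure D1:**
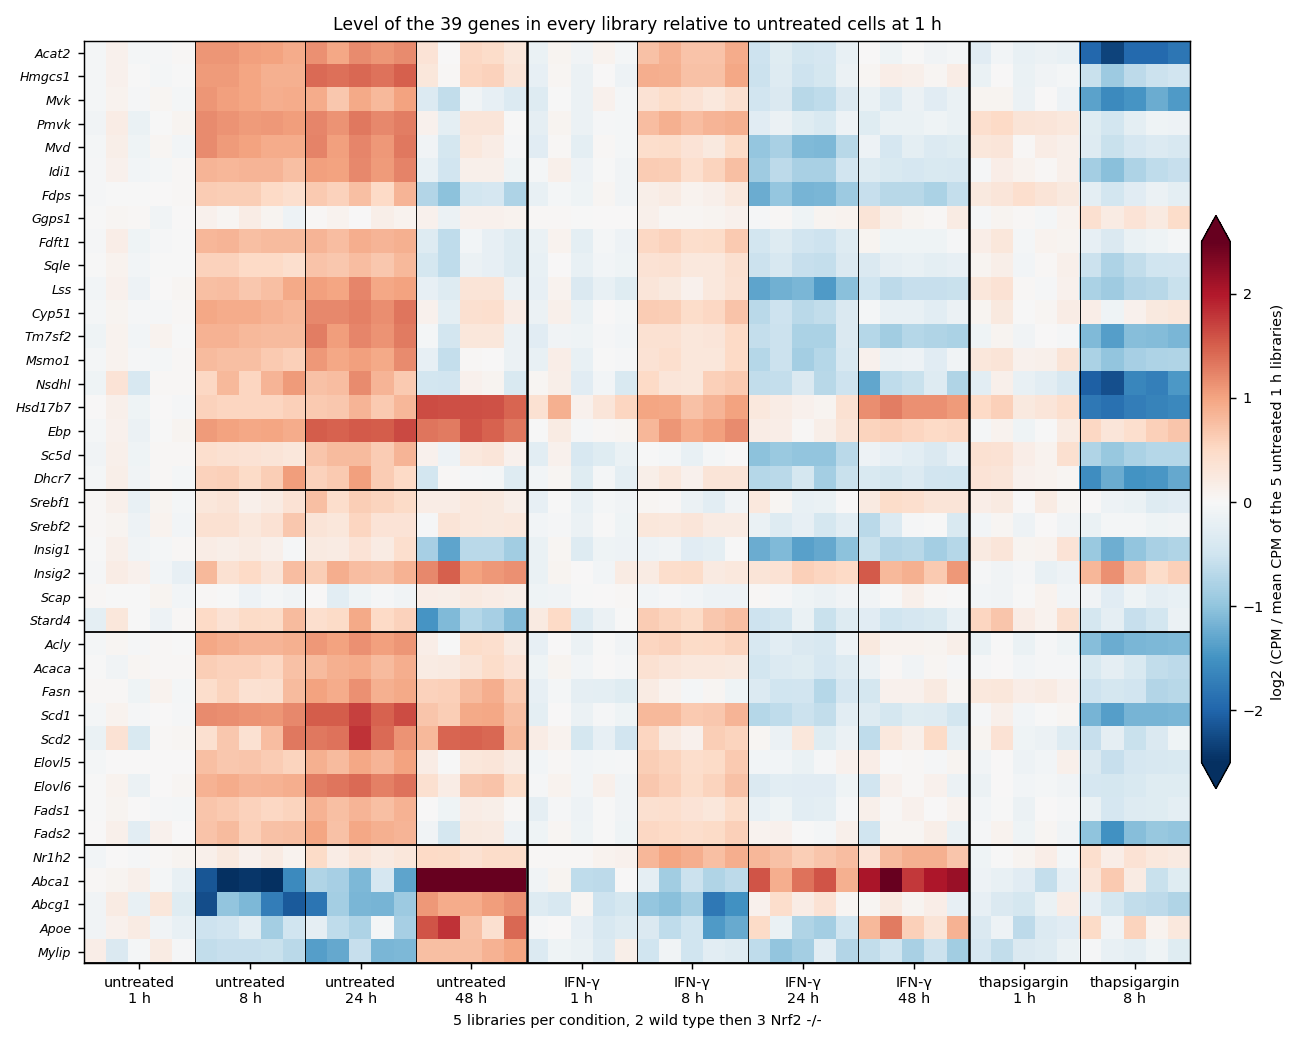
Level of each of the 39 members (rows, with lines between the 4 arms) in each of the 50 libraries (columns, by condition and hour, 2 wild type then 3 Nrf2 -/-), as the log2 ratio of its CPM to the mean of the 5 untreated 1 h libraries; red is higher and blue lower. The cholesterol arm is red in untreated cells at 8 and 24 h and mostly pale or blue at 48 h, where Hsd17b7 and Ebp stay red; the fatty acid arm is red at 8 and 24 h and paler at 48 h, with 7 of 9 genes still above 1 h; most genes of both are pale or blue under IFN-γ at 24 h and thapsigargin at 8 h, and Abca1 is blue at 8 h and darkest red at 48 h untreated.

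Scd1, a stearoyl-CoA desaturase, rose most among the fatty acid genes over these hours (2.23-fold, log2 1.16, SE 0.06, adjusted p = 4.23e-17), followed by Acly (ATP citrate lyase, log2 0.90), which supplies cytosolic acetyl-CoA. Scd2, the desaturase isoform most expressed here, gained 0.69 (SE 0.20), and did not pass (0.58) once replicate 1 of wild-type untreated 1 h was removed. Among the control genes, Insig2 (0.57), Stard4 (0.50), a carrier of cholesterol between membranes, Srebf2 (0.41) and Srebf1 (0.26) rose, while Insig1 (0.13) did not pass. Abca1 fell 5.17-fold (log2 −2.37, SE 0.24, adjusted p = 1.01e-09), from 4.10, 4.22, 4.42, 3.92 and 3.55 CPM at 1 h to 0.91, 0.57, 0.74, 0.43 and 1.34 CPM at 8 h. Every 8 h library lay below every 1 h library. Abcg1 fell by 1.55. Apoe, a secreted lipid carrier, fell by 0.51 (SE 0.19, adjusted p = 0.0312). It lost that call (−0.52 to −0.44) when 1 of 5 untreated libraries was left out, which were wild-type 1 h replicate 2, wild-type 8 h replicates 1 and 2, Nrf2 -/- 1 h replicate 1 and Nrf2 -/- 8 h replicate 2. Nr1h2, the LXR beta receptor itself, rose by 0.17 (adjusted p = 0.0462) and lost the call without any 1 of 8 of the 10 libraries (0.14 to 0.19). With the doubted library (labelled Nrf2 -/-, untreated 8 h) left out, the counts were again 32 higher and 4 lower.

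From 8 to 24 h the rise slowed. Of the members 19 rose and 1 fell, in a comparison in which 23.3% of all genes rose and 24.4% fell, with a median of 0.20. The cholesterol arm had 9 higher and 0 lower, led by the sterol isomerase gene Ebp (0.54, SE 0.07) and Hmgcs1 (0.42, SE 0.07). The fatty acid arm had 8 higher and 0 lower, led by Scd2 (0.70) and Fasn (0.47); Scd1 gained 0.40. In the control arm Srebf1 alone passed (0.31, SE 0.06), at values of 51.8, 52.7, 46.04, 48.7 and 54.6 CPM at 8 h and 70.8, 57.7, 65.2, 62.5 and 59.2 CPM at 24 h. Its 24 h libraries lay above all 8 h libraries. Srebf2 (−0.06) and Insig1 (0.13) did not pass. In the LXR arm Abca1 rose by 1.52 (SE 0.26), to 2.41, 2.27, 1.85, 3.01 and 1.61 CPM, Mylip fell by 0.53, and Apoe (0.05) did not pass. By mean level, 17 of the 19 cholesterol genes and all 9 fatty acid genes had their highest untreated hour at 24 h. The exceptions were Mvk (mevalonate kinase) at 8 h and Hsd17b7 at 48 h. With that 1 doubted 8 h library left out, 20 were higher and 1 lower.

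At 24 h the levels differed widely between members when divided by exon length, with the exons of all annotated transcripts of a gene merged. Hmgcs1 came first at 1814 ± 68.6 CPM per kb (SD, n = 5), and Scd2 was next at 939 ± 171, well apart from Hmgcs1. Cyp51 (lanosterol demethylase, 474), Acly (389), Acat2 (349) and Scd1 (329 CPM per kb) followed. At the low end stood Apoe at 1.23, Mylip at 0.613, Abca1 at 0.215 and Abcg1 at 0.100 CPM per kb. Fdps (farnesyl diphosphate synthase) and Idi1 (isopentenyl diphosphate isomerase) have uncertain levels, since the authors' transcript estimates were 6.13 and 3.03 times the gene count values in CPM. Fdps shares 26.7% of its exon bases with the coding entry Gm43738 on its own strand, which received 8 counts in all libraries together. Fdft1, Cyp51, Ggps1 and Srebf1 overlap exons of a gene on the other strand, Tm7sf2 overlaps Vps51 on its own strand, and Hmgcs1, Idi1, Lss, Scap and Elovl6 overlap antisense or provisional entries on the other strand, so reads there may be shared.

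**Figure D2:**
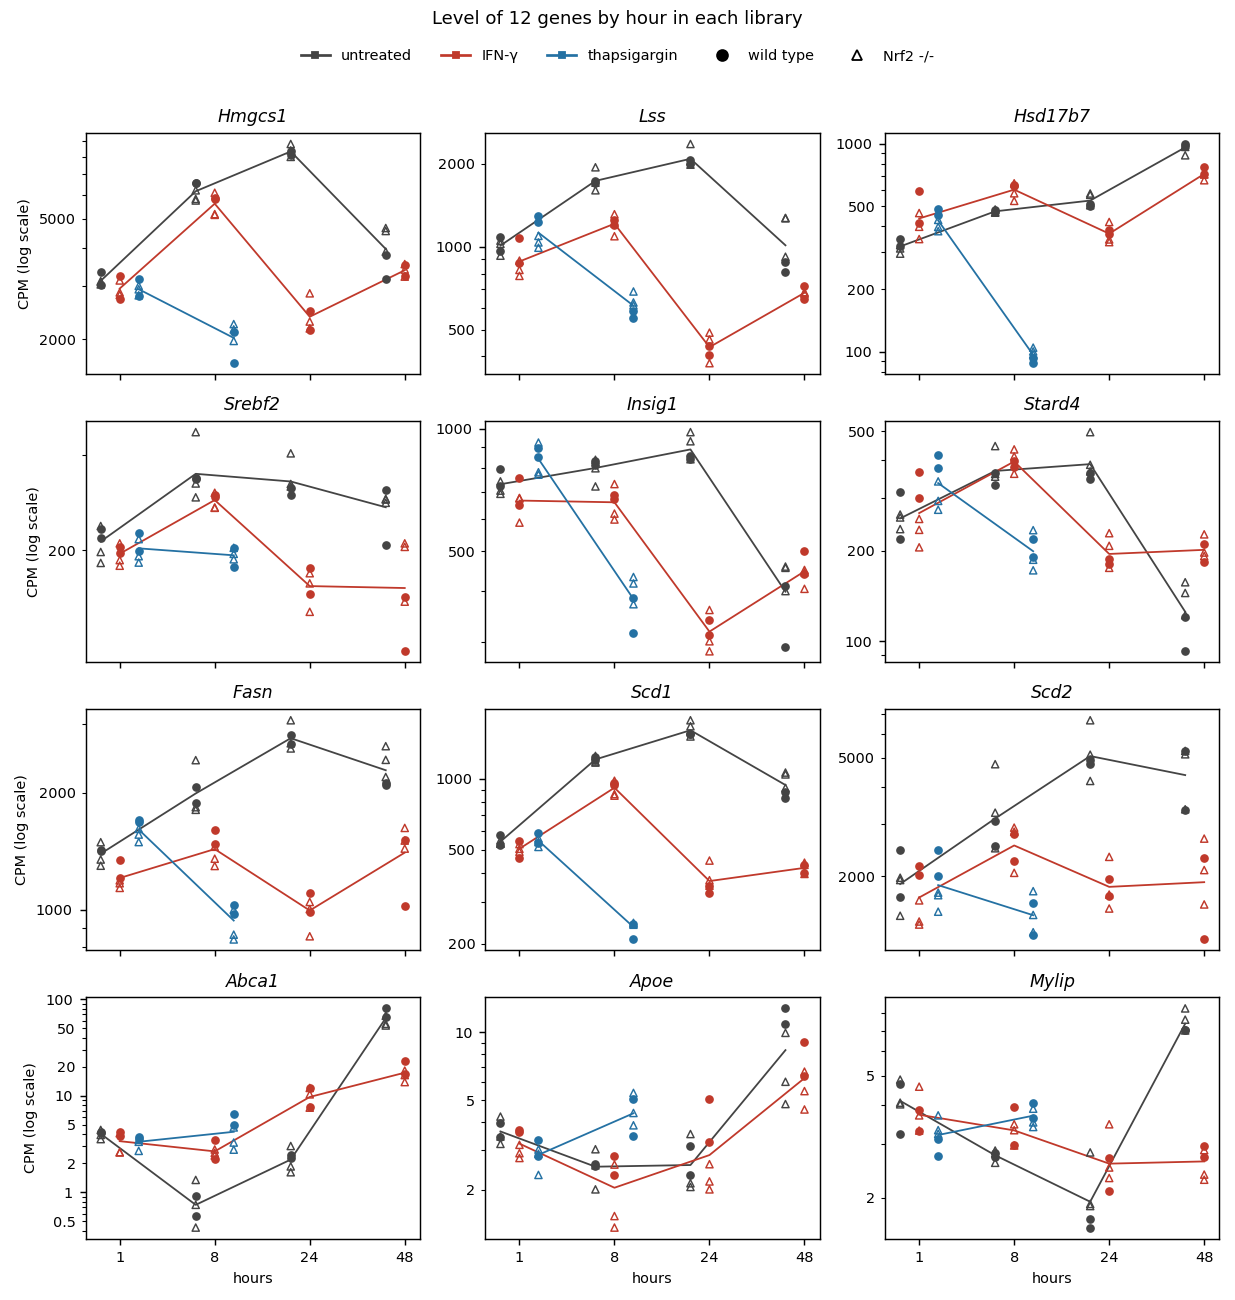
CPM (log scale) against hours for 12 members, with filled circles for wild-type and open triangles for Nrf2 -/- libraries, 1 colour per treatment, and lines through the geometric means of the 5 libraries. Untreated Hmgcs1 peaks at 24 h, where IFN-γ libraries lie at 2151 to 2833 CPM, and Abca1 is lowest at 8 h and highest at 48 h.

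Between 24 and 48 h the direction turned. Of the cholesterol genes 16 fell and 1 rose (median −1.10), 8 of the 9 fatty acid genes fell (median −0.79), and 4 of the 5 LXR arm genes rose (median 1.94). Over all members 7 rose and 27 fell, where 27.4% of all genes rose and 25.7% fell. Hmgcs1 went from 8341, 8123, 8392, 7992 and 8816 CPM at 24 h to 3781, 3163, 4549, 4653 and 3887 CPM at 48 h. The 48 h libraries all lay below the 24 h ones, and the lowest of them lay within the range of the 1 h libraries (log2 fold −1.10, SE 0.07). Wild-type replicate 2 was the lowest of the 5 at 48 h. The largest falls among the sterol genes were those of Fdps (2.59-fold lower, SE 0.07 on the log2 scale, adjusted p = 1.62e-19; log2 −1.37, and −1.38 in the transcript estimates) and Msmo1, a methylsterol oxidase (−1.25).

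Hsd17b7, a sterol ketoreductase in the removal of lanosterol's methyl groups, went the other way. It measured 504, 515, 576, 506 and 568 CPM at 24 h and 997, 979, 984, 965 and 880 CPM at 48 h, with no overlap between the hours. The rise was 1.82-fold (log2 0.87, SE 0.07, adjusted p = 2.83e-13). Ebp (−0.14) and Ggps1 (−0.03) did not pass in this interval. In the control arm Stard4 fell 3.13-fold (log2 −1.65, SE 0.11, adjusted p = 2.16e-14), from 346, 362, 496, 367 and 386 CPM to 92.7, 120, 157, 145 and 122 CPM. Insig1 fell by 1.17 and Srebf1 by 0.38, Insig2 rose by 0.44 and Scap by 0.27, and Srebf2 (−0.15) did not pass. Fads2 (a fatty acid desaturase, −0.94) and Elovl6 (an elongase, −0.86) fell most in the fatty acid arm. Scd1 fell by 0.79, whereas Scd2 (−0.19, SE 0.19) did not pass. All 5 Scd1 libraries at 48 h lay below those at 24 h, while Scd2 ranged from 3351 to 5274 CPM at 48 h and from 4179 to 6683 CPM at 24 h.

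Abca1 reached 65.4, 80.3, 55.5, 53.4 and 67.3 CPM at 48 h, above every other library of the series. That was 29-fold above 24 h (log2 4.86, SE 0.20, adjusted p = 1.22e-20). Abcg1 rose by 2.20, Mylip by 1.94 and Apoe by 1.77, and Nr1h2 (0.15) did not pass. Mylip had 7.02, 7.06, 7.01, 7.60 and 8.27 CPM at 48 h, against 1.60, 1.71, 2.81, 1.88 and 1.91 CPM at 24 h. Apoe went from 3.12, 2.34, 2.14, 3.54 and 2.06 CPM to 10.95, 12.8, 6.04, 4.81 and 9.96 CPM, with 2 of the Nrf2 -/- libraries lowest. Markers of astrocytes, which also express Apoe and Abca1, rose over the same interval. Their 5 summed genes went from 13.7 to 26.2 CPM at 24 h to 49.7 to 117 CPM at 48 h, and 4 of the 5 rose (Gfap by 2.06, Aqp4 by 2.58, Aldh1l1 by 3.03 and Slc1a3 by 1.86). The fifth, Gjb6, was at 0 to 0.03 CPM. Their part in these results was not tested.

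Set against 1 h, the untreated 48 h cells had 20 members higher and 7 lower (34.5% and 33.6% of all genes), with a median of 0.17. The fatty acid arm had 7 higher and none lower, with Scd2 at 1.20 and Scd1 at 0.77, and the LXR arm 5 higher. Cholesterol synthesis was split, with 4 higher, led by Hsd17b7 (1.58) and Ebp (1.39), and 5 lower. In the control arm Insig2 (1.21), Srebf1 (0.19) and Srebf2 (0.19) rose, and Stard4 (−1.08) and Insig1 (−0.91) fell. The fall of Fdps (−0.71) was not seen in the transcript estimates (−0.02).

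IFN-γ is the cytokine of activated T and natural killer cells, and these comparisons ask how it alters the genes at each matched hour. At 1 h only Hsd17b7 passed, and it rose by 0.48 (SE 0.07, adjusted p = 5.72e-06); 2.73% of all genes rose and 0.911% fell. Its values were 417, 595, 348, 399 and 464 CPM under IFN-γ and 321, 349, 296, 325 and 314 CPM untreated, and within each genotype the ranges did not overlap. Srebf1 (−0.12), Srebf2 (−0.08), Insig1 (−0.13), Scd1 (−0.10), Scd2 (−0.14), Abca1 (−0.21) and Apoe (−0.16) did not pass. At 8 h 3 members rose and 22 fell (19.4% and 20.4% of all genes), with a median of −0.27. The cholesterol arm had 14 lower and 1 higher (median −0.29), with Mvd (mevalonate diphosphate decarboxylase, −0.64, SE 0.08) and Mvk (−0.63) lowest and Hsd17b7 highest (0.36). Mvd measured 315, 321, 297, 275 and 323 CPM under IFN-γ and 530, 489, 470, 444 and 441 CPM untreated, with no overlap. In the fatty acid arm 6 fell, led by Fasn (−0.46) and Scd1 (−0.39), and Scd2 (−0.29) did not pass. Srebf1 (−0.33) and Insig1 (−0.28) fell, and Srebf2 (−0.16) did not pass.

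Abca1 and Nr1h2 rose under IFN-γ at 8 h. Abca1 gained 1.77 (SE 0.26), to 3.47, 2.21, 2.77, 2.40 and 2.56 CPM, and all 5 values lay above the untreated ones of that hour. Nr1h2 gained 0.73 (SE 0.07), with 46.2, 51.5, 48.99, 44.2 and 49.25 CPM against 28.4, 30.9, 28.25, 30.1 and 27.6 CPM untreated. The treated libraries again stood clear of the untreated. Abcg1 (0.37) and Apoe (−0.24) did not pass. The 5 summed astrocyte markers stood at 60.5 to 77.6 CPM under IFN-γ and 18.7 to 23.5 CPM untreated, with Slc1a3 the one that passed (1.90), the myelin genes at 3255 to 4244 against 5594 to 7130 CPM, and the progenitor genes at 1866 to 2256 against 1319 to 1792 CPM. Their part was not tested. With the doubted untreated library left out, the counts stayed at 3 higher and 22 lower.

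At 24 h of IFN-γ the synthesis arms stood far below the untreated cells, at the hour when those were at their highest. Of the cholesterol genes 18 of 19 fell (median −1.48), as did all 9 fatty acid genes (median −1.38) and 5 of the 6 control genes (median −0.59), while 4 of the 5 LXR arm genes rose (median 0.43). Over all members 4 rose and 32 fell, against 27.6% and 28.4% of all genes, and the median member was at −1.35. Lss, lanosterol synthase, measured 405, 438, 461, 378 and 488 CPM under IFN-γ and 2063, 2003, 2363, 1988 and 2045 CPM untreated. The 2 sets of libraries lay far apart, and the difference was 4.82-fold (log2 −2.27, SE 0.08, adjusted p = 4.31e-25). Mvd was 4.27-fold lower (SE 0.09 on the log2 scale, adjusted p = 4.93e-22). Scd1 was 4.38-fold lower (log2 −2.13, SE 0.06, adjusted p = 1.03e-27), at 329, 351, 372, 352 and 450 CPM against 1547, 1545, 1770, 1511 and 1669 CPM. Elovl6 fell by 1.60 and Scd2 by 1.45 (SE 0.20). Only Ggps1 (−0.06) among the sterol enzymes did not pass. Dhcr7, the last reductase of the sterol route, fell by 1.32, Acaca (acetyl-CoA carboxylase) by 1.23, the desaturase gene Fads1 by 0.98 and the elongase gene Elovl5 by 0.94.

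In the control arm at 24 h Insig1 fell by 1.47 (SE 0.08), from 857, 843, 930, 841 and 980 CPM to 311, 339, 284, 301 and 359 CPM. No IFN-γ library reached the untreated range. Stard4 fell by 0.99, Srebf2 by 0.63, Srebf1 by 0.56 and Insig2 by 0.34; Insig2 (−0.25) did not pass once replicate 2 of wild-type untreated 24 h was removed. Abca1 rose 4.39-fold (log2 2.14, SE 0.20, adjusted p = 1.79e-11), to 12.1, 7.61, 10.3, 12.0 and 7.52 CPM, all above the untreated values. Abcg1 rose by 1.42, and Nr1h2 (0.43) and Mylip (0.43) also rose, though Mylip (0.36) did not pass once replicate 1 of wild-type IFN-γ 24 h was removed. Apoe (0.20) did not pass. All 7 myelin genes fell, to a summed 4352 to 6143 CPM in these IFN-γ libraries from 16170 to 20417 CPM untreated. All 3 progenitor genes rose, to a summed 1268 to 1994 CPM from 494 to 703 CPM. The 5 summed astrocyte markers stood at 38.2 to 50.8 CPM against 13.7 to 26.2 CPM untreated, of which Slc1a3 alone passed (1.66). Their part in these results was not tested.

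By 48 h of IFN-γ the treated and untreated cells were closer. Of the members 7 were higher and 24 lower (27.3% and 28.5% of all genes), with a median of −0.26. The median of the cholesterol arm was −0.26 as well, with 13 lower and 3 higher. Ebp (−0.84) and Tm7sf2, a sterol reductase (−0.73), were lowest, and Fdft1, squalene synthase, was highest (0.28). Ggps1 (0.13) and Sqle (0.13), squalene epoxidase, passed too, and lost their calls without any 1 of 6 and of 7 libraries (0.07 to 0.14 and 0.08 to 0.13). Hmgcs1 had 3241, 3502, 3393, 3216 and 3538 CPM under IFN-γ and 3781, 3163, 4549, 4653 and 3887 CPM untreated, so that the wild-type ranges overlapped and the Nrf2 -/- ranges did not. Its log2 fold of −0.20 (SE 0.07) lost the call (−0.18 to −0.14) when replicate 1 of either wild-type group or replicate 2 of untreated Nrf2 -/- was removed. Scd2 (−1.20, SE 0.20) and Scd1 (−1.15) fell most in the fatty acid arm, in which 5 fell and none rose.

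The control genes diverged at 48 h. Stard4 rose by 0.71 (SE 0.11), with 211, 183, 192, 197 and 227 CPM under IFN-γ against 92.7, 120, 157, 145 and 122 CPM untreated, with no overlap. Srebf2 fell by 0.52 and Scap by 0.17. Insig1 (0.20) and Srebf1 (0.15) rose, and each lost its call without any 1 of 5 libraries (0.09 to 0.19 and 0.11 to 0.15). In Nrf2 -/- cells alone Insig1 was at −0.02. In the LXR arm Abca1 fell by 1.88 (SE 0.16), to 16.7, 22.7, 13.8, 16.4 and 18.2 CPM, which is still above every untreated library up to 24 h. Mylip fell by 1.46, Abcg1 by 0.95 and Apoe by 0.47, and Nr1h2 rose by 0.25. Apoe lost its call (−0.41 to −0.29) when replicate 1 of wild-type IFN-γ, 2 of wild-type untreated, 2 of Nrf2 -/- IFN-γ or 3 of Nrf2 -/- untreated was removed. Nr1h2 (0.14) lost its call when replicate 2 of wild-type IFN-γ was. The astrocyte markers Aqp4 (−0.96) and Aldh1l1 (−0.85) also fell at this hour, while Gfap (−0.65) did not pass; their summed level was 49.2 to 77.6 CPM. The summed myelin genes stood at 14121 to 18900 CPM under IFN-γ and 32338 to 35637 CPM untreated, and the progenitor genes at 1076 to 1290 and 608 to 888 CPM. The part of these markers was not tested. The count of 7 higher was 3 when untreated replicate 2 (wild type) or 3 (Nrf2 -/-) was removed, and 4 when IFN-γ replicate 1 or 3 (Nrf2 -/-) was.

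**Figure D3:**
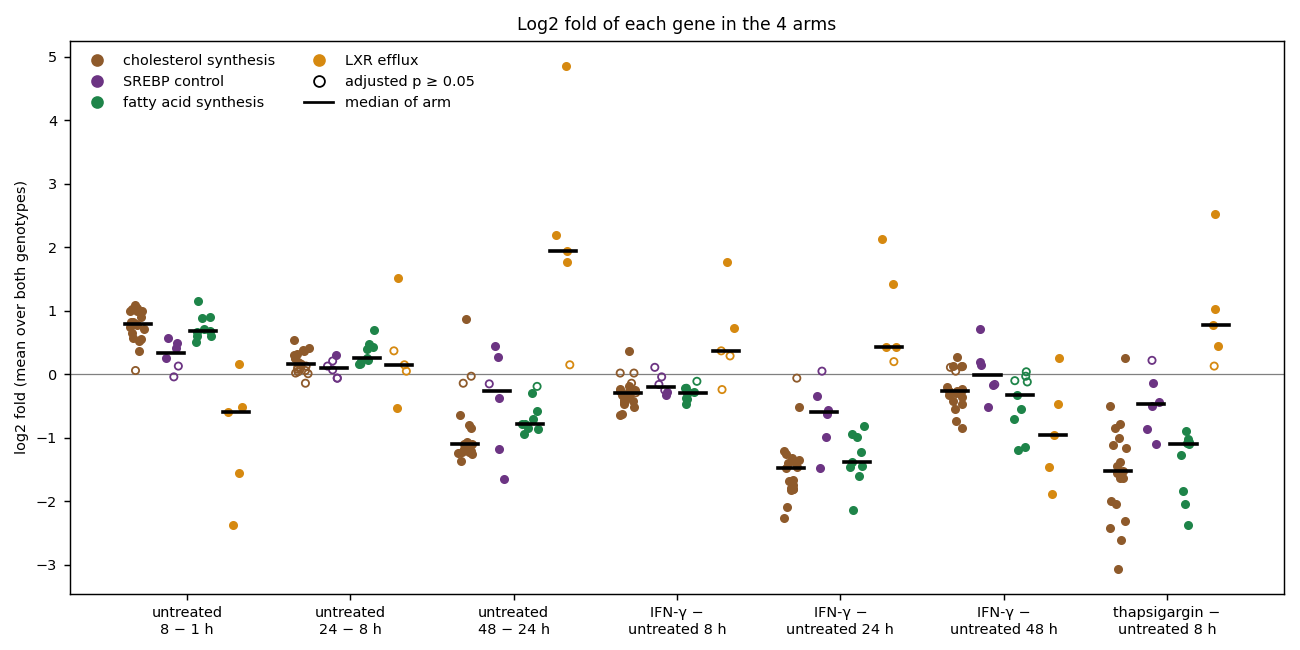
Log2 fold (y axis) of every member, 1 point per gene, by arm and comparison (x axis), filled where the adjusted p was under 0.05 and open where not, with the arm's median as a black bar. Cholesterol and fatty acid medians lie at −1.48 and −1.38 under IFN-γ at 24 h and at −1.52 and −1.10 under thapsigargin at 8 h, while the LXR arm lies at 0.43 and 0.78.

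The change in the IFN-γ response between hours was tested as an interaction. From 8 to 24 h the response became more negative in 32 members and more positive in 1 (17.2% and 15.8% of all genes), the one being Abcg1 (1.05, and 0.67 and not called without wild-type untreated 8 h replicate 2). From 24 to 48 h it became more positive in 29 and more negative in 5 (22% and 20.9%). Set directly against each other, the 48 h response was more positive than the 8 h one in 11 members and more negative in 10. Of 39 members, that is near the shares of all genes (21.4% and 20.4%). Within the treated cells themselves, the members had 30 higher and 2 lower at 8 h than at 1 h (23.7% and 21.1% of all genes), 2 higher and 30 lower at 24 h than at 8 h (15.2% and 16.3%), and 26 higher and 0 lower at 48 h than at 24 h (23.2% and 21.3%). Their highest hour was 8 h for 17 of the 19 cholesterol genes and all 9 fatty acid genes, and 48 h for Ggps1 and Hsd17b7. Hmgcs1 had 5860, 5802, 5144, 5173 and 6085 CPM at 8 h of IFN-γ and 2151, 2477, 2169, 2285 and 2833 CPM at 24 h, and no library of one hour reached the other. In untreated cells Hmgcs1 rose over the same interval (0.42, above). Without the doubted library, the response had 1 member more positive and 32 more negative from 8 to 24 h, and 11 of each from 8 to 48 h.

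Thapsigargin was compared with untreated cells at 1 and 8 h. At 1 h 6 members rose and 1 fell, where 12.9% of all genes rose and 7.52% fell. They included Hsd17b7 (0.43), Pmvk (0.37) and Stard4 (0.42), and Mylip fell by 0.39; Stard4 (0.30) and Mylip (−0.24) lost their calls without wild-type untreated 1 h replicate 1, and Mylip also without wild-type thapsigargin replicate 2 or Nrf2 -/- untreated replicate 2 (−0.35 in each). Fdps (0.31) was at 0.03 in the transcript estimates. Srebf1 (0.13), Insig1 (0.21) and Abca1 (−0.26) did not pass, nor did Srebf2 (−0.04), Scd1 (0.02) or Apoe (−0.33), and Scd2 was at 0.997 times its untreated level. Set against IFN-γ at 1 h, thapsigargin had 13 members higher and none lower (13.9% and 10.5% of all genes). Sc5d, a sterol desaturase (0.48), and Pmvk (0.45) led the cholesterol arm, Insig1 (0.34) and Stard4 (0.32) the control arm with Srebf1 (0.25), and Fasn (0.41) was the one in the fatty acid arm. The count was 7 without wild-type IFN-γ 1 h replicate 1, and Stard4 lost its call without that library or any 1 of 5 others (0.25 to 0.35).

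At 8 h of thapsigargin 5 members rose and 32 fell, against 34.3% and 32.9% of all genes, with a median of −1.09. The cholesterol arm had 18 lower and 1 higher (median −1.52), the fatty acid arm 9 lower (median −1.10), the control arm 5 lower (median −0.47), and the LXR arm 4 higher (median 0.78). Acat2 had 104, 82.0, 107, 107 and 117 CPM under thapsigargin and 883, 881, 829, 818 and 779 CPM untreated. No treated library came near the untreated ones, and the fall was 8.34-fold (log2 −3.06, SE 0.08, adjusted p = 6.89e-31). Nsdhl, a sterol dehydrogenase that acts beside Hsd17b7, was 6.09-fold lower (SE 0.14 on the log2 scale, adjusted p = 4.29e-17). Hsd17b7 itself was 4.95-fold lower, at 93.4, 88.1, 96.9, 100.3 and 104.6 CPM against 480, 468, 469, 466 and 483 CPM. All 5 lay far under the untreated values. Hmgcs1 fell by 1.64 (SE 0.08), to 2112, 1666, 1972, 2153 and 2241 CPM, and Ggps1 was the one enzyme that rose (0.26).

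Scd1 fell 5.17-fold (SE 0.06 on the log2 scale, adjusted p = 1.36e-29) and Acly 4.11-fold (SE 0.06, adjusted p = 1.92e-29) at 8 h of thapsigargin. Scd1 had 242, 209, 241, 243 and 245 CPM against 1231, 1206, 1183, 1171 and 1249 CPM untreated, without overlap. Scd2 fell by 1.08 and Fasn by 1.07. In the control arm Insig1 fell by 1.09, Stard4 by 0.86, Srebf2 by 0.50 and Srebf1 by 0.43, and Insig2 (0.22) did not pass. Abca1 rose 5.75-fold (log2 2.52, SE 0.24, adjusted p = 1.95e-11), to 4.99, 6.39, 4.69, 2.76 and 3.27 CPM. The 2 wild-type libraries and 1 Nrf2 -/- library were the highest, and all 5 stood above the untreated values. Abcg1 rose by 1.03, Apoe by 0.78 and Mylip by 0.44. Among the astrocyte markers Gfap (−0.98) and Aqp4 (−1.83) fell and Slc1a3 (1.79) rose, and the 5 summed markers stood at 52.7 to 57.5 CPM against 18.7 to 23.5 CPM untreated. The lineage genes Sox10, Olig1 and Olig2 all fell (summed level 845 to 1061 CPM against 1772 to 1950 CPM), as did all 7 myelin genes (1268 to 1797 CPM against 5594 to 7130 CPM). Of the progenitor genes Cspg4 alone passed, and rose (0.56). The part of these markers was not tested. With the doubted untreated library left out, the members had 6 higher and 32 lower.

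Thapsigargin and IFN-γ share the untreated libraries, so they were also compared directly at 8 h. Of the members 31 were lower under thapsigargin and 5 higher (33.8% and 34.1% of all genes). Acat2 (−2.81) and Hsd17b7 (−2.67) differed most, the latter having risen under IFN-γ at that hour, and Ggps1 was higher (0.25). Scd1 (−1.98) and Acly (−1.66) led the fatty acid arm, and Scd2 was at −0.78. In the control arm Stard4 (−0.97) and Insig1 (−0.82) were lower and Insig2 (0.47) higher, while Srebf2 was at −0.35 and Srebf1 (−0.09) did not pass. In the LXR arm Apoe (1.02) and Abca1 (0.75) were higher under thapsigargin and Nr1h2 (−0.60) lower. The order of the enzymes was not that of IFN-γ at 24 h. Lss and Mvd, which had the largest falls there, stood at −1.52 and −1.45 under thapsigargin, whereas Acat2 stood at −1.48 under IFN-γ at 24 h and at −3.06 under thapsigargin. The hours differ, and this difference was not tested.

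Genotype made no called difference among the members. Averaged over hours, edgeR called 0 of 39 between Nrf2 -/- and wild type in untreated, IFN-γ and thapsigargin cells, where it called 0.0243%, 0.0547% and 0.510% of all genes in either direction. At an unadjusted p under 0.05 the members numbered 4, 3 and 5 (6.68%, 8.94% and 9.41% of all genes; 1 in place of the 4 without the doubted library), and DESeq2 called 0 in each. Apoe in IFN-γ cells had the smallest adjusted p (0.153), at −0.54 with a 95% interval from −0.81 to −0.27. Over untreated cells, the members' intervals lay between −0.50 and 0.37. In the 7 tests of a genotype difference in a response, edgeR and DESeq2 again called 0 members, and edgeR called 0.00% of all genes. At an unadjusted p under 0.05 there were 0 or 1 members in 4 of the 7, 5 in the thapsigargin response at 8 h (8.36% of all genes; 2 members without the doubted library), and 16 and 22 in the 2 described next.

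One of those 7 had many members on 1 side without passing. In the change from 1 to 48 h untreated, 22 of 39 had an unadjusted p under 0.05, against 7.29% of all genes; 21 of them were more positive in Nrf2 -/- cells, and the median was 0.28 against −0.01 for all genes. Hmgcs1 shows the values, with 3781 and 3163 CPM in wild type and 4549, 4653 and 3887 CPM in Nrf2 -/- at 48 h, so that the genotypes did not overlap, and 3020 and 3342 against 3083, 3031 and 3107 CPM at 1 h, where they did. In the IFN-γ response at 48 h, which uses the same untreated libraries, 15 members were more negative and 1 more positive at that level (8.30% of all genes in both directions together; median −0.21). Leaving out wild-type untreated 48 h replicate 2 took the first count from 22 to 5, and the second from 16 to 4. With replicate 2 of wild-type untreated 1 h removed, the first was 7. Across single libraries left out, the medians ran from 0.18 to 0.35 and from −0.29 to −0.15. With replicate 2 of wild-type IFN-γ 48 h removed, which left 1 library in that group, the second median was −0.22.

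The authors' transcript estimates separate transcripts annotated as retaining an intron from the rest. Members were used if they had a transcript annotated as retaining an intron and at least 100 estimated counts in every library (19 of 39). In these, the share of a gene's estimated counts on such transcripts was compared between untreated hours. This measure was looked at after its values were seen and is given with no test. In 14 of the 19 (73.7%) all 5 libraries at 1 h lay above all 5 at 8 h, as they did in 8.50% of all 5473 genes with such transcripts. Without the doubted library the members were again 14 of 19, and 14.1% of all genes. The median share went from 6.5% to 3.4%, 2.5% and 2.6% over the 4 hours in the members, and from 6.2% to 5.4%, 4.5% and 5.4% in the 5454 other genes. The direction was shared widely. By mean share over the 5 libraries of an hour, 18 of the 19 members and 4003 of the 5454 other genes were higher at 1 h than at 8 h. Lss had 65.9 to 69.7% at 1 h and 49.5 to 52.8% at 8 h, and Mvk 12.0 to 14.0% and 4.3 to 6.6%. Fdps had 10.57 to 13% and 4.5 to 5.7%, and 16.2 to 20.95% under thapsigargin at 1 h, above the 11.1 to 13.7% of IFN-γ at 1 h. Tm7sf2 had 14.53 to 17.56% in untreated cells at 8 h and 5.62 to 8.08% under thapsigargin, with no overlap. Idi1 (0.56 to 0.68% untreated and 0.70 to 1.18% under thapsigargin) and Acaca (1.33 to 2.06% and 2.44 to 4.00%) went the other way, also without overlap. The share of all genes was not counted for thapsigargin. In Fdps the retained-intron transcripts stayed near one level (74.6 and 71.1 CPM of estimated counts) while its other transcripts went from 548 to 1322 CPM. In Lss both kinds were higher at 8 h (617 to 817 and 297 to 780).

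**Figure D4:**
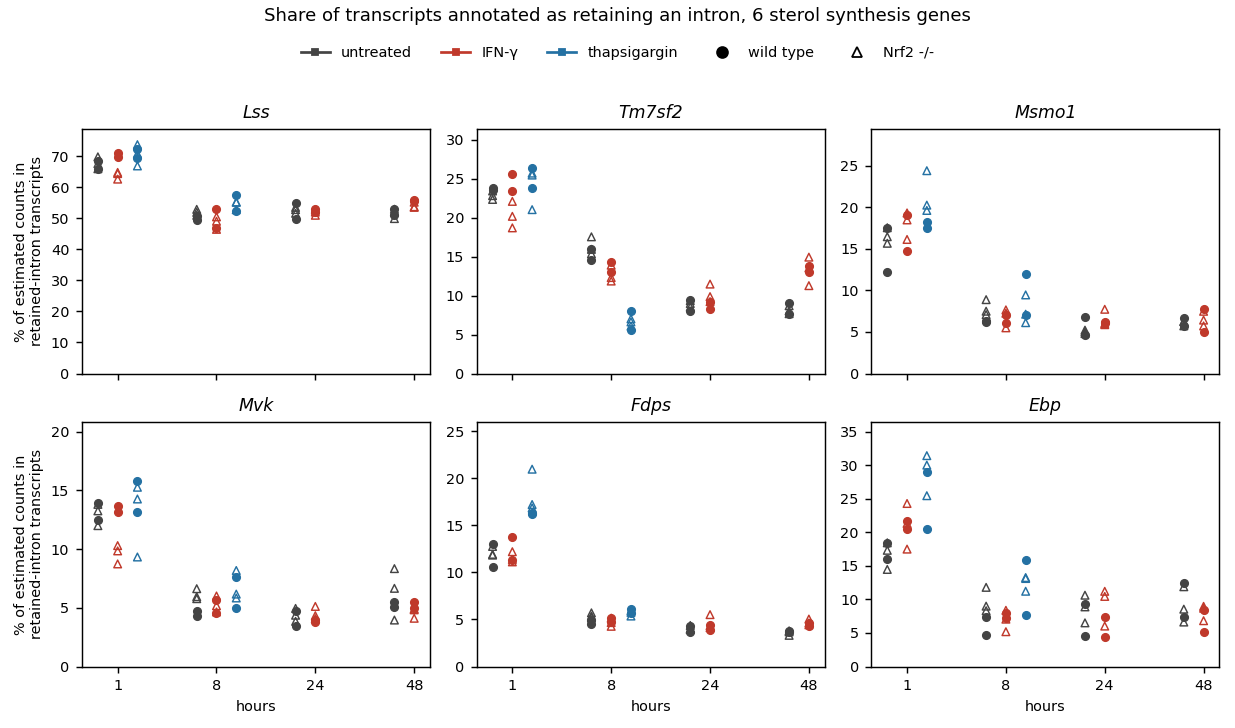
Share of each gene's estimated counts on transcripts annotated as retaining an intron (percent, y axis) against hours (x axis) for 6 sterol synthesis genes, with 1 point per library and 1 colour per treatment. In untreated cells at 1 h Lss lies at 65.9 to 69.7% and Mvk at 12.0 to 14.0%, and both are lower in all 5 libraries at 8 h.

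Related genes outside the 39 were taken from lists of 17 sterol, 17 fatty acid and 7 LXR genes. Their counts stand beside the shares of all genes given above for the same comparisons. The fatty acid list moved with the members, with 11 higher and 4 lower from 1 to 8 h untreated, 3 higher and 8 lower from 24 to 48 h, 1 higher and 14 lower under IFN-γ at 24 h (median −1.01), and 1 higher and 15 lower under thapsigargin at 8 h (median −0.61). Acss2, acetyl-CoA synthetase, was its largest mover at 8 h (419 against 162 CPM at 1 h, log2 1.37) and under IFN-γ at 24 h (110 against 518 CPM, −2.23, adjusted p = 2.77e-23). Acsl3, an acyl-CoA synthetase, fell by 1.64 from 24 to 48 h. The sterol list was mixed, with 2 higher and 10 lower under IFN-γ at 24 h and 6 higher and 7 lower of 17 under thapsigargin at 8 h, close to the 34.3% and 32.9% of all genes there. Its largest mover under IFN-γ at 24 h was Cyp46a1, which makes an oxysterol (−1.78). Under thapsigargin at 8 h it was Nus1, a subunit of the enzyme that makes dolichol precursors (1.74). Ch25h, which makes another oxysterol and LXR ligand, had 12, 5, 9, 15 and 11 counts under IFN-γ at 8 h and 2, 0, 0, 0 and 0 untreated. All IFN-γ libraries lay above the untreated ones, at counts too low for a fold. In the LXR list 6 of 7 were higher and 1 lower under thapsigargin at 8 h (median 0.63), Lpcat3, a phospholipid remodelling enzyme, being the lower one (−1.31).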

How the data were processed

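Values came from the authors' deposited gene count table (whole-number counts for 50 libraries) and from their deposited transcript table of kallisto estimated counts. The submitters' processing notes name STAR, featureCounts, kallisto and edgeR; versions, genome build, annotation and strandedness were each not given in the sources used here. Groups follow the sample titles. Gene counts were tested in R 4.3.3 with edgeR 4.0.16 (limma 3.58.1): filterByExpr (minimum count 10, minimum total 15; 16460 genes kept), TMM scaling, 20 group means, and quasi-likelihood F tests of differences averaged over genotypes, Benjamini-Hochberg adjusted over all 16460 genes, called at 0.05. CPM is counts per 1e6 of the TMM-scaled library size. Totals of 32.3 M to 54.7 M counts set the depth; the script was tested on simulated data. DESeq2 1.42.0, other scaling, no filter, single genotypes, summed transcript estimates, a term for Xist and leaving out each library were tried. Transcript estimates were rounded for that fit.

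The members, gene lists and tests were chosen with earlier results of these data known. Of the comparisons, 5 (within IFN-γ cells, and the steps of the IFN-γ response) and the retained-intron shares were added after seeing the data. In each comparison and arm, values in full go to at most the 2 called members with the largest log2 fold in each direction, plus Srebf1, Srebf2, Insig1, Scd1, Scd2, Abca1 and Apoe; in each related list to the called gene with the largest fold. Outside that rule, and after their values were seen, library values were also given for Hmgcs1 at each step, Mylip at 48 h, Hsd17b7 under thapsigargin, Ch25h and the retained-intron examples. Sequences are from RefSeq, GRCm38.p6.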

Additional observations from a re-analysis of the deposited data

Results flagged for a closer look

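The results below were singled out because the difference between IFN-γ and untreated cells was itself different between hours, by edgeR's quasi-likelihood test of that interaction at an adjusted p under 0.05. From 8 to 24 h the response became more negative in 18 cholesterol synthesis genes, 4 SREBP control genes and 9 fatty acid genes, and the LXR arm had 1 gene more positive and 1 more negative (of all genes, 15.8% were more positive and 17.2% more negative). From 24 to 48 h it became more positive in 18 cholesterol genes, 3 control genes and 8 fatty acid genes, and more negative in 1 control gene and 4 LXR arm genes (22% and 20.9% of all genes). From 8 to 48 h 11 of the 39 members became more positive and 10 more negative, which is near the 21.4% and 20.4% of all genes. The cholesterol arm had 6 genes more positive and 2 more negative, the control arm 3 and 1, the fatty acid arm 2 and 3, and the LXR arm 4 more negative; no test compared the arms.

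Single genes differed between the 8 and 48 h responses as well. Srebf1 moved by 0.48 on the log2 scale, from lower under IFN-γ at 8 h (−0.33) to higher at 48 h (0.15), and Insig1 also by 0.48 (−0.28 to 0.20). Srebf2 moved by −0.36, Scd1 by −0.75 and Scd2 by −0.91. Abca1 moved by −3.65, from 1.77 at 8 h to −1.88 at 48 h. The untreated level of Abca1 rose between those hours from 0.43 to 1.34 CPM to 53.4 to 80.3 CPM, and its IFN-γ level from 2.21 to 3.47 CPM to 13.8 to 22.7 CPM.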

How the results depend on the processing

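Most counts kept within 1.5 times under other scaling, no filter, DESeq2, summed transcript estimates and single libraries left out; the exceptions follow. With wild-type libraries alone, which are 20 of 50, the counts fell to 2 lower (8 against 1 h untreated), 8 higher (24 against 8 h), 12 higher (48 against 1 h), 11 lower (IFN-γ at 8 h), 14 lower (IFN-γ at 48 h), 1 higher and 0 lower (thapsigargin at 1 h), 3 higher (thapsigargin at 8 h), 4 higher and 3 higher (thapsigargin against IFN-γ at 1 and 8 h), 0 lower (8 against 1 h within IFN-γ) and 0 higher (IFN-γ response, 24 against 8 h). With Nrf2 -/- libraries alone they were 0 lower (24 against 8 h), 2 higher (IFN-γ at 48 h), 3 higher and 0 lower (thapsigargin at 1 h), 7 higher (against IFN-γ at 1 h), and, for the IFN-γ response, 3 higher (48 against 8 h), 0 higher (24 against 8 h) and 3 lower (48 against 24 h). Both use fewer samples, and the share of all genes called was not counted in them. Whether the members lost calls more often than other genes is therefore not known. With Nrf2 -/- libraries alone, Insig1 under IFN-γ at 48 h reversed, from 0.20 to −0.02. That hour's 7 higher became 4 with RLE scaling and 3 with DESeq2. The 1 lower under thapsigargin at 1 h became 2 with RLE, DESeq2 or a term for Xist and 0 with transcript estimates, which also gave 3 lower for the IFN-γ response from 24 to 48 h. The Xist term gave 1 lower from 24 to 48 h within IFN-γ. The causes were not tested.

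Leaving out single libraries gave 3 to 8 higher for IFN-γ at 48 h, 0 to 2 lower for thapsigargin at 1 h (0 when untreated 1 h replicate 1 of wild type or 2 of Nrf2 -/- was removed), 7 to 13 higher against IFN-γ at 1 h, 1 to 3 lower from 8 to 24 h untreated (3 without wild-type untreated 24 h replicate 1), 0 to 1 lower for IFN-γ at 1 h, and 0 to 2 higher for the IFN-γ response from 8 to 24 h. Within IFN-γ it gave 1 to 2 lower from 1 to 8 h and 0 to 2 lower from 24 to 48 h (2 without wild-type IFN-γ 48 h replicate 2). For the genotype difference in the IFN-γ response at 48 h it gave 0 to 1 higher and 0 to 3 lower. No paired analysis was possible from the labels, because replicate numbers were given in accession order and pair nothing by themselves. The library order does run in consecutive sets of a single genotype and hour, with each treatment of that hour once. The 3 libraries whose genotype tag went against the title form such a set. The labels do not say whether a set shared a culture, and matching by these sets was not tested. For the retained-intron shares, minima of 30 and 300 estimated counts, added after seeing the data, gave 14 of 20 and 14 of 19 members (7.90% and 9.47% of all genes). The genotype counts at an unadjusted p and the retained-intron count without the library labelled Nrf2 -/- untreated 8 h replicate 3 were also added after seeing the data.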
